A study of Mus musculus with 9 samples.

Results

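The Toll-like receptors Tlr1, Tlr2, Tlr3, Tlr4, Tlr6, Tlr7, Tlr8 and Tlr9, the co-receptor Cd14 and the adaptor Myd88 were measured with Illumina mouse bead arrays in RAW264.7, a line of mouse macrophages. They were represented by every probe that the platform annotation assigns to these 10 genes, which gave 15 of the 45281 probes on the array. Of these, 12 probes of 9 genes passed the filter on dim signals (a signal over the array's median on at least 3 arrays), and 8 probes of 6 genes lay above background on all 9 arrays. Background was set on each array at 3 SD of the lower side over the peak of its log2 signals.

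There were 3 groups of 3 arrays, all grown in the same serum-containing medium. Control cells were untreated. Knock-down cells held a stable hairpin construct against Nfat5, a transcription factor known from the response to salt stress, and decoy cells stably carried oligonucleotides with its binding sequence. Neither a control with an unrelated hairpin or oligonucleotide nor a Toll-like receptor ligand is named in the labels used here, which also do not say whether a stable line was 1 clone or whether the 3 samples within each group came from separate cultures. The p-values thus rest on the spread between these samples alone, and that spread may be technical.

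Toll-like receptors recognise microbial molecules and are a main route by which macrophages sense infection. Tlr2 pairs with Tlr1 or Tlr6 at the cell surface and binds bacterial lipopeptides, whereas Tlr4 binds lipopolysaccharide with the help of Cd14 and Ly96 (MD-2). Tlr3, Tlr7, Tlr8 and Tlr9 sit in endosomes and sense nucleic acids. Myd88 is the cytoplasmic adaptor that carries the signal of every member receptor except Tlr3 to the IRAK kinases and Traf6.

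RefSeq promoter windows (GRCm38.p6, 250 bases before to 50 after a gene's start) were taken for 7 of the 10 genes, in 9 windows. No window of Cd14, Tlr4 or Tlr7 was searched, so nothing is said of matches in these genes. They were searched on both strands for TGGAAA (the core shared by binding sites of the NFAT family), the interferon-stimulated response element (GAAA, any 2 bases, GAAA) and GAGGAA (the core of PU.1 sites). TGGAAA was found in 3 of the 9 windows, in Tlr1, Tlr3 and Tlr9, and in 21.4% of all 32851 windows. The interferon-stimulated response element was found in 2, in Myd88 and Tlr6, and in 3.44% of all windows. GAGGAA was found in 3, in Tlr1, Tlr8 and Tlr9, and in 28.3% of all windows. A match describes the letters of a window and is not evidence of binding. As examples, the windows of Myd88 and Tlr6 with the interferon-stimulated response element and that of Tlr9 with the NFAT core are shown. Other windows with matches, in Tlr1, Tlr3 and Tlr8, are not shown. Capitals mark the matches. In Tlr6 they are 2 overlapping matches on the opposite strand, and in Tlr9 the NFAT core is followed directly by a PU.1 core, with a further PU.1 core on the opposite strand.
Myd88, chr9:119339969-119340268, minus strand: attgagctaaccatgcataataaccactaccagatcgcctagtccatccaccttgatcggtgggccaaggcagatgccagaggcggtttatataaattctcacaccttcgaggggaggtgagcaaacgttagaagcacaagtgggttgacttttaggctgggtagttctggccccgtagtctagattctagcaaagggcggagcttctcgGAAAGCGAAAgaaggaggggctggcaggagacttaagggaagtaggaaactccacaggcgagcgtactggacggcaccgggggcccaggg
Tlr6, chr5:64959117-64959416, minus strand: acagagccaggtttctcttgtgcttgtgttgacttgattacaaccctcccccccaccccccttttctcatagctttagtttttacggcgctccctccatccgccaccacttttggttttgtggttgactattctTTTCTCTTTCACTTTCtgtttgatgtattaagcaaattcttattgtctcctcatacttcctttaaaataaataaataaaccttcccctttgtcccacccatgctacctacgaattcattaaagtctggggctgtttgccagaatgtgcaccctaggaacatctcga
Tlr9, chr9:106222348-106222647, plus strand: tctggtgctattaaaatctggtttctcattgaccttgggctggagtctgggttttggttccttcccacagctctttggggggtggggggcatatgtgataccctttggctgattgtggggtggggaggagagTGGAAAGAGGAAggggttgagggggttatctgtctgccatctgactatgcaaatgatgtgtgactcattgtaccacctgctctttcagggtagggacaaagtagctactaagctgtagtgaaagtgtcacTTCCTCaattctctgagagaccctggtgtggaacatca

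The arrays differed in brightness between the groups, which bears on every value given here. The upper quartile of raw signal was 319 to 336 units on control, 209 to 257 on knock-down and 214 to 237 on decoy arrays, and 34.1% to 34.9%, 21.5% to 27.1% and 24.6% to 26.9% of probes were above background. The median of raw signal was 150 to 158 units on control, 172 to 187 on knock-down and 156 to 167 on decoy arrays. The background limit, at 193 to 200, 230 to 254 and 214 to 229 units, lay above this median on all 9 arrays. Changes are therefore given after quantile normalization, which gives all arrays the same distribution of values, and beside it after scaling the arrays to a common median. Median scaling thus aligns the arrays by dim probes below background and not by probes with signal. Under median scaling the median of all 27062 tested probes moved by -0.43 (log2) in knock-down cells and -0.37 in decoy cells, and the medians of the 9311 tested probes above background on all 9 arrays lay at -0.98 and -0.81. Under quantile normalization the medians of those 9311 probes were 0.19 and 0.11. On its brightest probe, Nfat5 itself had 5049, 4591 and 4857 units in control, 1428, 1051 and 734 in knock-down cells and 2083, 1731 and 1430 in decoy cells, a fall of 2.04-fold (limma adjusted p = 2.49e-05) and 1.40-fold (adjusted p = 0.0112) after quantile normalization. Another Nfat5 probe was called higher in both (1.56-fold and 1.65-fold), and at -0.55 and -0.22 (log2) under median scaling. Of 7 macrophage markers on the array, Csf1r, Lyz2 and Spi1 were above background on all 9 arrays and Itgam and Mertk on none. Csf1r, Spi1 and Adgre1 were called lower in both comparisons under both scalings (Csf1r at -1.38 and -0.96 quantile normalized). Lyz2 was called higher in both when quantile normalized (levels of 14.81 in control, 15.93 in knock-down and 15.89 in decoy cells), and its differences were 0.34 and 0.40 under median scaling, called in the decoy alone. Fcgr1 was called higher in the decoy (0.73) but was at 0.0062 under median scaling. In the knock-down Fcgr1 was not called (-0.41, limma adjusted p = 0.0577), but was called lower under median scaling (-1.05, adjusted p = 0.000187). The summed raw signal of the 7 was 64503 to 68983 units in control, 47473 to 71984 in knock-down cells and 62971 to 67665 in decoy cells. The markers of T cells (4 on the array) and B cells (3) were on none. The neutrophil marker S100a8 was above background on all 9 arrays. It was called higher in both comparisons, at 1.66 and 1.52 quantile normalized and at 0.76 and 0.88 under median scaling. The other 3 neutrophil markers were above background on none, though Cxcr2 among them was called higher in the knock-down. The summed raw signal of the 4 was 703 to 743 units in control, 904 to 1144 in the knock-down and 927 to 1014 in the decoy. Of 5 epithelial markers, Krt8 was above background on 3 arrays and called lower in both, and the other 4 were on none (sums of 723 to 759, 802 to 854 and 707 to 796 units). Fibroblast markers, of which 4 of 5 were on no array above background, summed to 691 to 746, 893 to 955 and 795 to 893 units. Among these 4, Col1a2 was called higher in both comparisons and Col3a1 in the knock-down. Such sums hold each array's background, and the array medians given above were highest in the knock-down. The part of these markers in the results was not tested.

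Myd88 had the member probe with the smallest p in both comparisons with control, a fall that held under both scalings, while its other probe was called in the opposite direction after quantile normalization alone. The dimmer probe (ILMN_2774646) had raw signals of 1823, 1876 and 2036 units in control, 498, 306 and 297 in knock-down cells and 523, 501 and 309 in decoy cells. All 6 treated arrays lay far below all 3 control arrays. After quantile normalization it was at 10.04 ± 0.081 (log2, SD, n = 3) in control, 8.62 ± 0.29 in knock-down cells and 8.83 ± 0.33 in decoy cells. It fell 2.68-fold in the knock-down (log2 change -1.42, SE 0.18, limma adjusted p = 2.15e-05) and 2.31-fold in the decoy (log2 change -1.21, adjusted p = 0.000169). This fall was called under all 19 alternatives that gave it a value in either comparison, with a log2 change of -2.63 to -1.25 in the knock-down and -2.21 to -1.02 in the decoy. In bulk samples such as these, fewer cells with a transcript and less of it in each cell cannot be told apart, nor can the effect of the hairpin or decoy and that of transfection and selection.

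The brighter Myd88 probe (ILMN_2971767) had 10493, 12807 and 10822 units in control, 11466, 6770 and 6062 in knock-down cells and 11078, 9736 and 6070 in decoy cells. In raw signal the groups overlapped, and no treated array was above the highest control array. Quantile normalized, it rose by 0.59 on the log2 scale in the knock-down (adjusted p = 0.00524) and by 0.58 in the decoy (adjusted p = 0.00805), while under median scaling the signs turned, to -0.46 (adjusted p = 0.147) and -0.29 (adjusted p = 0.360). Relative to the median of all tested probes under that scaling these values were -0.032 and 0.076. The medians of the 9311 probes above background on all 9 arrays were lower, at -0.98 and -0.81. The mean over both Myd88 probes was at -0.42 in the knock-down (adjusted p = 0.0374) and -0.31 in the decoy (adjusted p = 0.124).

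The ratio between both Myd88 probes on an array does not depend on a scaling factor between arrays, although raw signals still hold each array's background. The brighter probe was 5.76, 6.83 and 5.32 times the dimmer in raw signal in control. It was 23.0, 22.1 and 20.4 times the dimmer in the knock-down and 21.2, 19.4 and 19.6 times in the decoy. The groups do not overlap, and the ratio was 3.68-fold higher in the knock-down and 3.38-fold higher in the decoy (exact two-sided permutation test, p = 0.1 each, the smallest that 3 against 3 arrays allow). Among 1708 genes with 2 probes above background on all 9 arrays, 107 genes (6.26%) had a shift in their probe ratio at least this large in knock-down cells and 66 (3.86%) in decoy cells. The annotation gives both probes the same RefSeq transcript, and which transcript forms each one detects was not tested.

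**Figure D1:**
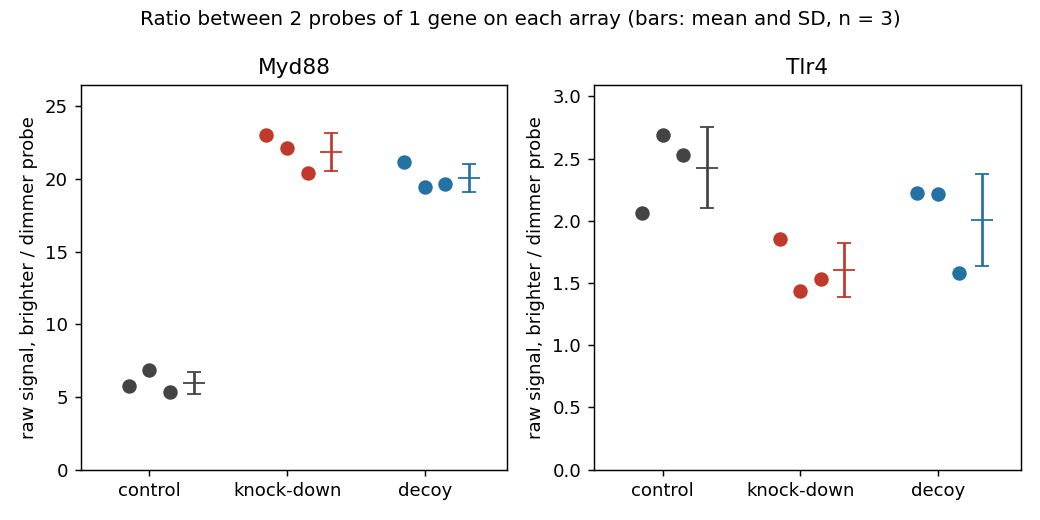
Ratio of raw signal between the brighter and the dimmer probe of Myd88 (left) and of the Tlr4 pair (right) on each of the 9 arrays, by group, with mean and SD (n = 3). The Myd88 ratio is 5.32 to 6.83 on control arrays and 19.4 to 23.0 on the treated arrays, whereas the Tlr4 ratio is 2.06 to 2.69 in control, 1.44 to 1.85 in the knock-down and 1.58 to 2.22 in the decoy.

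Tlr4, the lipopolysaccharide receptor, had 3 probes, of which 2 were above background on all 9 arrays. The brighter (ILMN_2684234) had 1131, 1221 and 1253 units in control, 947, 628 and 463 in knock-down cells and 1106, 1241 and 797 in decoy cells. In raw signal the knock-down arrays were all below the control arrays, while the decoy arrays overlapped them. Quantile normalized, the levels were 9.36 ± 0.046 in control, 9.72 ± 0.054 in knock-down cells and 10.21 ± 0.17 in decoy cells (log2, SD, n = 3), without overlap between any of the groups. This was a rise of 1.80-fold in the decoy (log2 change 0.85, adjusted p = 0.000285), which median scaling turned to -0.15 (adjusted p = 0.631). In the knock-down it was 1.28-fold (log2 change 0.36, adjusted p = 0.0420), a call that held under 11 of 21 alternatives and was lost without any 1 of the control replicates (adjusted p = 0.130, 0.116 and 0.0889 without replicates 1, 2 and 3), without any 1 of the knock-down replicates (adjusted p = 0.0799, 0.0563 and 0.0508), without a filter (adjusted p = 0.0541) and with a replicate block (adjusted p = 0.0601). The direction in the knock-down also turned with the scaling, to lower under median scaling (-0.92, adjusted p = 0.00939) and to -0.20 under upper quartile scaling (adjusted p = 0.371). The median-scaled values were -0.49 in knock-down cells and 0.21 in decoy cells relative to the median of all tested probes. Median-scaled, the 9311 probes above background on all 9 arrays had medians of -0.98 and -0.81.

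The other Tlr4 probe with signal (ILMN_2752966) had 548, 454 and 495 units in control, 511, 437 and 302 in knock-down cells and 498, 560 and 505 in decoy cells. The raw values of the 3 groups overlapped. Quantile normalized, it rose 1.65-fold in the knock-down (log2 change 0.73, adjusted p = 0.00123) and 1.99-fold in the decoy (log2 change 0.99, adjusted p = 0.000188), whereas under median scaling it was at -0.36 (adjusted p = 0.148) and 0.13 (adjusted p = 0.615). The ratio between both Tlr4 probes was 2.06, 2.69 and 2.53 in control, 1.85, 1.44 and 1.53 in knock-down cells and 2.22, 2.22 and 1.58 in decoy cells. It was lower in the knock-down without overlap (exact permutation p = 0.1) and overlapped control in the decoy (exact permutation p = 0.3). Shifts of this size or larger were found in 51.8% and 68.0% of the 1708 genes. The remaining Tlr4 probe (ILMN_2690004) was not above background on any array and did not pass the filter.

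Tlr6, which pairs with Tlr2, had a probe (ILMN_3162337) with 546, 627 and 583 units in control, 634, 577 and 402 in knock-down cells and 542, 530 and 387 in decoy cells. In raw signal the groups overlapped. Quantile normalized, it rose 2.00-fold in the knock-down (log2 change 1.00, SE 0.14, adjusted p = 5.47e-05) and 1.56-fold in the decoy (log2 change 0.65, adjusted p = 0.00290), whereas under median scaling the signs turned, to -0.16 (adjusted p = 0.496) and -0.25 (adjusted p = 0.303). Those values lie above the medians of -0.98 and -0.81 that the 9311 probes above background on all 9 arrays had under median scaling. The quantile normalized values of treated and control arrays did not overlap. The other Tlr6 probe (ILMN_1254605) lay near background. It had 224, 215 and 219 units in control, 229, 225 and 171 in knock-down cells and 217, 221 and 208 in decoy cells, and exceeded background on all 3 control arrays, on no knock-down array and on 1 decoy array. Its log2 changes were 0.0041 in the knock-down (adjusted p = 0.987) and 0.34 in the decoy (adjusted p = 0.144).

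Tlr2, the shared partner of Tlr1 and Tlr6, was measured by 1 probe (ILMN_2733733). It had 15835, 15539 and 13554 units in control, 10666, 7983 and 5344 in knock-down cells and 12066, 10220 and 6941 in decoy cells. Every treated array was below every control array in raw signal. Quantile normalized, Tlr2 was at 13.18 ± 0.15 in control, 13.31 ± 0.12 in knock-down cells and 13.47 ± 0.18 in decoy cells (log2, SD, n = 3), and the groups overlapped. The log2 changes were 0.13 (95% interval -0.18 to 0.45, adjusted p = 0.472) and 0.29 (-0.026 to 0.60, adjusted p = 0.144). Under median scaling Tlr2 was lower in the knock-down (-0.88, adjusted p = 0.0106, or -0.45 relative to the median of all tested probes). In the decoy it was at -0.56 (adjusted p = 0.0767, or -0.19 relative to that median). The 9311 probes above background on all 9 arrays had lower medians under that scaling, at -0.98 and -0.81.

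Cd14, the co-receptor that hands lipopolysaccharide to Tlr4, was also measured by 1 probe (ILMN_2742075). It had 26689, 24723 and 25192 units in control, 25809, 16853 and 7704 in knock-down cells and 19279, 17264 and 13691 in decoy cells. The knock-down arrays spread more than 3-fold in raw signal, while the control arrays differed little. Quantile normalized, Cd14 was at 13.98 ± 0.11 in control, 14.28 ± 0.45 in knock-down cells and 14.27 ± 0.072 in decoy cells. The log2 change of 0.30 in the knock-down was not called (95% interval -0.099 to 0.70, adjusted p = 0.200), nor was that of 0.30 in the decoy (-0.10 to 0.69, adjusted p = 0.232). Knock-down replicate 3 decided the first value. Without it the change was 0.56 (adjusted p = 0.00582). Under median scaling the differences were -0.68 (adjusted p = 0.0936) and -0.53 (adjusted p = 0.195). Both lie above the medians of the 9311 probes above background on all 9 arrays, at -0.98 and -0.81.

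Among the endosomal members, Tlr7, a sensor of single-stranded RNA, was the 1 with signal above background. Its probe (ILMN_1245354) had 3675, 3462 and 3849 units in control, 2785, 1627 and 1216 in knock-down cells and 2352, 2370 and 1892 in decoy cells. Every treated array was below every control array in raw signal. Quantile normalized, every treated array was above every control array, with 11.06 ± 0.12 in control, 11.22 ± 0.096 in knock-down cells and 11.33 ± 0.080 in decoy cells (log2, SD, n = 3). Neither change was called (log2 change 0.16, 95% interval -0.13 to 0.44, adjusted p = 0.359, and 0.27, -0.022 to 0.55, adjusted p = 0.142). Under median scaling Tlr7 was lower in the knock-down (-1.01, adjusted p = 0.00525) and in the decoy (-0.66, adjusted p = 0.0444), or -0.58 and -0.29 relative to the median of all tested probes. For the 9311 probes above background on all 9 arrays the medians were -0.98 and -0.81.

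**Figure D2:**
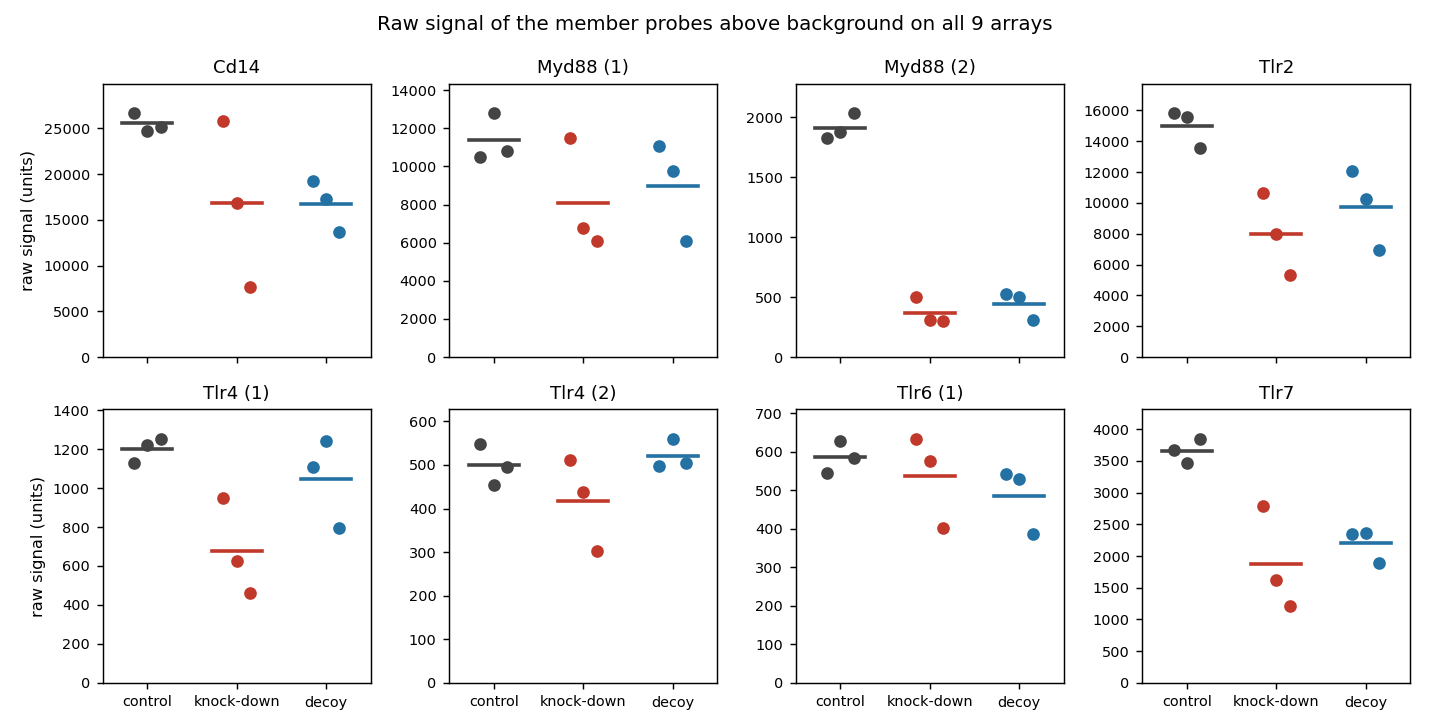
Raw signal (units, linear axis from 0) of the 8 probes above background on all 9 arrays, 1 point for each array and a line at the mean of each group (n = 3). The number in brackets ranks the probes of a gene by brightness. The dimmer Myd88 probe drops from 1823 to 2036 units in control to 297 to 523 on the treated arrays, whereas the dimmer Tlr4 probe and Tlr6 overlap between the groups.

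The other receptors were not above background on any array. Tlr1, the other partner of Tlr2, had 132, 153 and 130 units in control, 161, 219 and 183 in knock-down cells and 143, 171 and 186 in decoy cells, and its changes were not called (log2 change 0.36, adjusted p = 0.154, and 0.29, adjusted p = 0.283). Tlr8, a sensor of single-stranded RNA in human cells, had 95, 112 and 113 units in control, 174, 181 and 179 in knock-down cells and 161, 127 and 143 in decoy cells. Its knock-down difference was called (log2 change 0.73, adjusted p = 0.00498), but both groups were below background, so no fold is given. Tlr8 passed the filter on 3 arrays and Tlr1 on 4, none of them a control array, so each had to be higher in treated cells to be tested at all. The double-stranded RNA sensor Tlr3 (132 to 178 units over the 9 arrays) and 1 of 2 probes of the CpG DNA sensor Tlr9 (105 to 155 units) did not pass the filter. The other Tlr9 probe, at 134 to 192 units, had log2 changes of 0.27 (adjusted p = 0.142) and 0.10 (adjusted p = 0.628). Under median scaling neither Tlr1 nor Tlr9 was called in either comparison, while Tlr8 was called in both (adjusted p = 0.00439 and 0.0413). Under upper quartile scaling Tlr1 (adjusted p = 0.000526 and 0.00213) and Tlr9 (adjusted p = 9.07e-05 and 0.00107) were called higher in both, below background on every array.

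Counted together, 4 of the 8 member probes above background on all 9 arrays were called higher and 1 lower in the knock-down. Among the 9311 probes with such signal 38.9% were called higher and 24.3% lower, and among all 27062 tested probes 46.5% were called, 22.6% higher and 23.9% lower. In the decoy 4 of the 8 were also higher and 1 lower, against 28.6% and 19.3% of the 9311 probes, and against 34.3% of all probes called, 16.1% higher and 18.2% lower. The medians of the 8 member probes were 0.33 and 0.44, against 0.19 and 0.11 for the 9311 probes. Under median scaling none of the 8 was called higher in either comparison by limma. At an unadjusted p below 0.05 there were also 0. Higher calls were rare among the 9311 probes too, at 2.14% for knock-down cells and 2.47% for decoy cells. In the knock-down 4 of the 8 were lower, against 71.7% of the 9311 probes, when 8.29% of all probes were higher and 48.6% lower. In the decoy 2 were lower, against 64.7%, when 7.01% of all probes were higher and 43.5% lower. Treated and control values did not overlap for 6 of the 8 member probes in the knock-down (73.1% of the 9311 probes and 58.8% of all) and 7 in the decoy (66.1% and 54.8%). These shares describe the members beside the rest of the array and set nothing apart as particular to them. Both comparisons use the same control arrays.

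**Figure D3:**
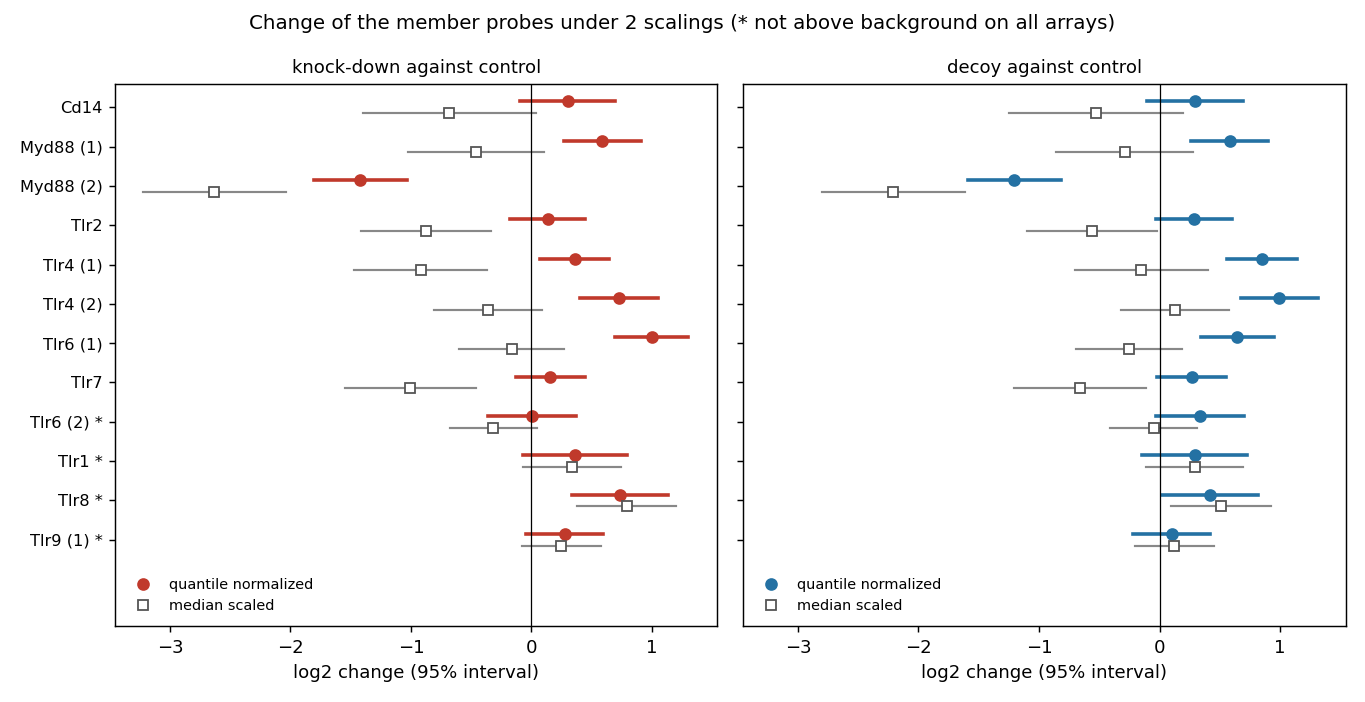
Log2 change with 95% interval of the 12 tested member probes in the knock-down (left) and the decoy (right) against control, after quantile normalization (filled circles) and median scaling (open squares). Asterisks mark probes not above background on every array. The dimmer Myd88 probe is lower under both scalings, while the changes of Tlr4, Tlr6 and the brighter Myd88 probe, called higher under quantile normalization, lie at -0.92 to 0.13 under median scaling.

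Set against each other, the knock-down and decoy lines showed no called difference in any of the 12 member probes by limma, where 2.68% of all tested probes were called. At an unadjusted p below 0.05 there were 2 member probes, the brighter Tlr4 probe and the brighter Tlr6 probe. The brighter Tlr4 probe was 0.49 lower in the knock-down (95% interval -0.78 to -0.20, adjusted p = 0.0686), in 3 of 3 arrays below all decoy arrays. It passed under 4 of 21 alternatives, which were the authors' processed values (-0.46, adjusted p = 0.0278), no background correction (adjusted p = 0.0317), a filter on 3 or more arrays over background (adjusted p = 0.0436) and without knock-down replicate 1 (adjusted p = 0.0484). The Tlr6 probe was 0.35 higher in the knock-down (0.051 to 0.65, adjusted p = 0.196). For the dimmer Myd88 probe the difference was -0.21 (-0.60 to 0.17, adjusted p = 0.572) and for the brighter 0.0048 (-0.32 to 0.33, adjusted p = 0.991). For Cd14 it was 0.0021, with an interval of -0.40 to 0.40. In this comparison 2 of the 8 member probes above background on all 9 arrays did not overlap, against 24.4% of the 9311 probes and 17.2% of all.

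Other genes of the pathway were taken from 4 lists, each gene by its brightest tested probe, and 56 of 66 listed genes could be tested. In the knock-down 15 were called higher and 13 lower, against 26.5% and 21.4% of 13716 named genes. In the decoy 11 were higher and 7 lower, against 18.1% and 16.7%. The medians were 0.053 and 0.11. Among the lower calls, Tlr12 in both comparisons and Rnaset2a in the knock-down passed the filter through the control arrays alone. Under median scaling none of the 56 was called higher, against 8.01% of named genes for knock-down cells and 6.63% for decoy cells, and 48 and 40 were called lower, against 50.2% and 45.5%. Of these genes 43 were above background on all 9 arrays, and 38 and 32 of the 43 were called lower, against 71.7% and 64.7% of the 9311 probes with such signal. None of the 43 was called higher, against 2.14% and 2.47% of those 9311 probes. At an unadjusted p below 0.05, 0 of the 56 were higher by limma in either comparison under that scaling.

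Of 12 tested receptor partners, further receptors and chaperones, 1 was called higher and 5 lower in the knock-down (median -0.37), and 1 higher and 4 lower in the decoy (median -0.28). Both lower counts include Tlr12, which passed the filter through the control arrays alone. Of all named genes, 26.5% rose and 21.4% fell for knock-down cells, and 18.1% rose and 16.7% fell for decoy cells, which is the background for the counts of each list. Under median scaling none was called higher, and 11 and 9 were called lower. Of the 9311 probes above background on all 9 arrays, 2.14% and 2.47% were called higher under that scaling. Lower calls made up 71.7% and 64.7% of these probes. Hsp90b1, the endoplasmic reticulum chaperone gp96 that folds most Toll-like receptors, had 34037, 37035 and 33114 units in control, 6978, 3692 and 2917 in knock-down cells and 9149, 7724 and 7327 in decoy cells. It fell by 1.91 on the log2 scale in the knock-down (adjusted p = 1.39e-07) and by 1.17 in the decoy (adjusted p = 2.98e-05), under all 21 alternatives in each comparison. Ly86 (MD-1), the partner of the receptor-like Cd180, had 12730, 16433 and 15036 units in control, 4942, 2345 and 2097 in knock-down cells and 5828, 5184 and 3111 in decoy cells. It fell by 1.21 (adjusted p = 3.03e-05) and by 0.76 (adjusted p = 0.00227), also under all 21 alternatives in each. Cnpy4, a chaperone described for surface Tlr4, was called lower in both (adjusted p = 0.000482 and 0.000199). It was above background on the control arrays alone (319 to 416 units there), which makes it at least 1.14-fold lower in the decoy, and no fold is given for the knock-down.

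Tlr13, a sensor of bacterial ribosomal RNA, was called higher on its brightest probe in the knock-down (0.42, adjusted p = 0.0245) and the decoy (0.71, adjusted p = 0.00152), but was at -0.79 and -0.26 there under median scaling. Its other probe, above background on the 3 control arrays alone, was called lower in both (adjusted p = 0.000437 and 0.000669). The knock-down rise was not called without control replicate 1, 2 or 3 or knock-down replicate 2 (adjusted p = 0.0624, 0.0823, 0.0766 and 0.0765). Tlr12, a receptor of parasite profilin, was called lower in both comparisons (adjusted p = 0.000389 and 0.000731), with signal above background on 1 array only, so no fold is given. It passed the filter on the 3 control arrays alone, so it had to be lower in treated cells to be tested at all. Under upper quartile scaling that call was lost in both (adjusted p = 0.702 and 0.504). Ly96 (MD-2), the lipopolysaccharide-binding partner of Tlr4, had 1522, 1848 and 2091 units in control, 872, 500 and 487 in knock-down cells and 1270, 1111 and 874 in decoy cells. It was not called against control, at -0.38 in the knock-down (adjusted p = 0.0612) and 0.31 in the decoy (adjusted p = 0.146), while median scaling put it lower in both, at -1.66 and -0.70. Without knock-down replicate 3 it was called lower in the knock-down (-0.48, adjusted p = 0.0316). Nrros, which restrains Toll-like receptors, was at 0.14 (adjusted p = 0.456) and 0.18 (adjusted p = 0.356), and at -0.95 and -0.70 under median scaling. The median-scaled values of these genes stand beside medians of -0.98 and -0.81 for the 9311 probes above background on all 9 arrays.

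Of 7 tested adaptors and regulators, 2 rose and 1 fell in the knock-down and none was called by limma in the decoy, against a background of 34.8% of named genes. At an unadjusted p below 0.05, 1 of the 7 was higher and 1 lower in the decoy. All 7 were called lower in both comparisons under median scaling, against 71.7% and 64.7% of the 9311 probes. Tirap, the adaptor that brings Myd88 to Tlr2 and Tlr4, was called higher in the knock-down (0.37, adjusted p = 0.0266) but at -0.87 under median scaling, and of its 3 other probes with signal 1 was also called (0.63, adjusted p = 0.00607). Pik3ap1 (BCAP), which links the receptors to PI3-kinase, was called higher there (0.41, adjusted p = 0.0322) but at -0.77 under median scaling. Without any 1 of the control replicates neither was called (adjusted p = 0.0815 to 0.0848 for Tirap and 0.0568 to 0.129 for Pik3ap1), and Pik3ap1 also not without knock-down replicate 2 or 3 (adjusted p = 0.107 and 0.0655). Ecsit, a Traf6-binding protein, fell by 0.78 (adjusted p = 0.0232), from 2945, 3076 and 3271 units in control to 1573, 517 and 631. It was not called without control replicate 1 or 3 or knock-down replicate 2 (adjusted p = 0.0553, 0.0666 and 0.115). The inhibitor Tollip was at -0.083 in the knock-down (adjusted p = 0.656) and 0.035 in the decoy (adjusted p = 0.874), where its other probe was called higher (0.94, adjusted p = 0.0143).

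Of 24 tested kinases and ubiquitin ligases downstream of Myd88, 9 were called higher and 3 lower in the knock-down (median 0.24), and 7 higher and 1 lower in the decoy (median 0.25). Under median scaling the direction turned, with none called higher, 20 and 14 called lower and medians of -0.72 and -0.58. Of the 9311 probes above background on all 9 arrays 71.7% and 64.7% were called lower, with medians of -0.98 and -0.81. Irak1, the kinase recruited by Myd88, fell on its brightest probe by 0.43 in the knock-down (adjusted p = 0.0205) and by 0.50 in the decoy (adjusted p = 0.0130). That probe had 2119, 1797 and 2079 units in control, 866, 601 and 477 in knock-down cells and 766, 684 and 636 in decoy cells. In the knock-down both other Irak1 probes were called lower too (-1.70, adjusted p = 1.84e-07, for 1 of them, and adjusted p = 0.0335 for the other, which was on no knock-down array above background). In the decoy 1 of them fell (by 1.36, adjusted p = 3.38e-06). The fall of the brightest probe was not called without control replicate 1 or 3 (adjusted p = 0.111 and 0.0799 for knock-down cells, 0.0814 and 0.0610 for decoy cells). Its relative Irak2 was called higher, at 0.39 (adjusted p = 0.0453) and 0.49 (adjusted p = 0.0217), but was at -0.88 and -0.53 under median scaling and not called as the mean over its probes (-0.19 and -0.074). That call was lost without each of 6 arrays in the knock-down comparison (every control replicate, knock-down replicate 1 and decoy replicates 1 and 2, adjusted p = 0.0518 to 0.163). In the decoy it was lost without control replicate 2 or 3 or decoy replicate 3 (adjusted p = 0.0735, 0.0948 and 0.0673).

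Traf6, the ubiquitin ligase that Irak1 activates, had 1373, 1433 and 1361 units in control, 1394, 929 and 907 in knock-down cells and 1251, 1087 and 667 in decoy cells. It was called higher in the knock-down (0.90, adjusted p = 0.000471) and the decoy (0.53, adjusted p = 0.0218), but was at -0.36 and -0.47 under median scaling. The decoy call was lost without any 1 of the control replicates or decoy replicate 1 or 2 (adjusted p = 0.0593 to 0.0885), and another Traf6 probe was called lower there (-0.60, adjusted p = 0.0447). Tab2, of the kinase complex that Traf6 recruits, was called higher in both (0.89, adjusted p = 0.00140, and 0.79, adjusted p = 0.00469), but was at -0.31 and -0.17 under median scaling. Map3k8 (Tpl2), which activates the ERK pathway, was likewise called higher (0.44, adjusted p = 0.0162, and 0.75, adjusted p = 0.000739), but was at -0.46 and 0.015 under median scaling. Its knock-down call was lost without control replicate 2 or 3 (adjusted p = 0.0927 and 0.0601).

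The p38 kinase Mapk14 was called higher in the knock-down (0.58, adjusted p = 0.00423) but was at -0.55 under median scaling, and its upstream kinase Map2k3 was at 0.46 (adjusted p = 0.0103) and -0.52. The call of Map2k3 was lost without control replicate 3 (adjusted p = 0.0577). Mapkapk2, a substrate of p38, fell by 0.78 in the knock-down (adjusted p = 0.00311), from 18879, 20743 and 20585 units in control to 6408, 6733 and 3870, and was called lower under all 21 alternatives. In the decoy, with 7927, 7923 and 8756 units, it was at -0.41 (adjusted p = 0.101). There it was called lower under 5 of 21 alternatives, among them median scaling (-1.20, adjusted p = 0.000457) and without decoy replicate 3 (-0.58, adjusted p = 0.0264). Btk, a kinase linked to Myd88 signalling, was at 0.32 in the knock-down (adjusted p = 0.0768) and at -0.77 under median scaling, and was called higher without knock-down replicate 3 (0.42, adjusted p = 0.0257).

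Proteases and lysosomal proteins that process the endosomal receptors and their ligands had 3 of 13 genes called higher and 4 lower in the knock-down and 3 higher and 2 lower in the decoy. The 4 include Rnaset2a, which was above background on no array and passed the filter on the 3 control arrays alone. Under median scaling none was called higher and 10 were called lower in each, against 71.7% and 64.7% of the 9311 probes called lower. Ctss (cathepsin S) had 1869, 2198 and 2144 units in control, 356, 291 and 232 in knock-down cells and 511, 507 and 340 in decoy cells. It fell by 2.00 in the knock-down (adjusted p = 1.09e-07) and by 1.27 in the decoy (adjusted p = 1.72e-05), under all 21 alternatives in each. Ctss was above background on 2 of the 3 knock-down arrays, so the size of its fall there is uncertain. Ctsk, another cathepsin, fell by 0.72 (adjusted p = 0.00136) and by 0.56 (adjusted p = 0.0103), the second not called without control replicate 2 (adjusted p = 0.0555). Ctsb fell by 0.80 in the knock-down (adjusted p = 0.000243, with 1 control array at saturation) and was at -0.18 in the decoy (adjusted p = 0.315). In the decoy it was called lower under 2 of 21 alternatives, median scaling (-1.16, adjusted p = 0.00174) and upper quartile scaling (-0.54, adjusted p = 0.0129). Ctsl had 328, 335 and 299 units in control, 439, 415 and 309 in knock-down cells and 332, 297 and 277 in decoy cells. It was called higher in both, at 1.16 (adjusted p = 1.09e-05) and 0.58 (adjusted p = 0.00484), but was at 0.25 and -0.082 without a call under median scaling. Lgmn, an asparagine endopeptidase, was called higher at 0.62 (adjusted p = 0.00278) and 0.58 (adjusted p = 0.00654), but was at -0.41 and -0.27 without a call under median scaling. Rnaset2b, a lysosomal ribonuclease, was at -0.19 in the knock-down (adjusted p = 0.314) and 0.12 in the decoy (adjusted p = 0.558), and was called lower in both under median scaling (-1.23 and -0.72). Medians of the 9311 probes were -0.98 and -0.81 under that scaling.

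**Figure D4:**
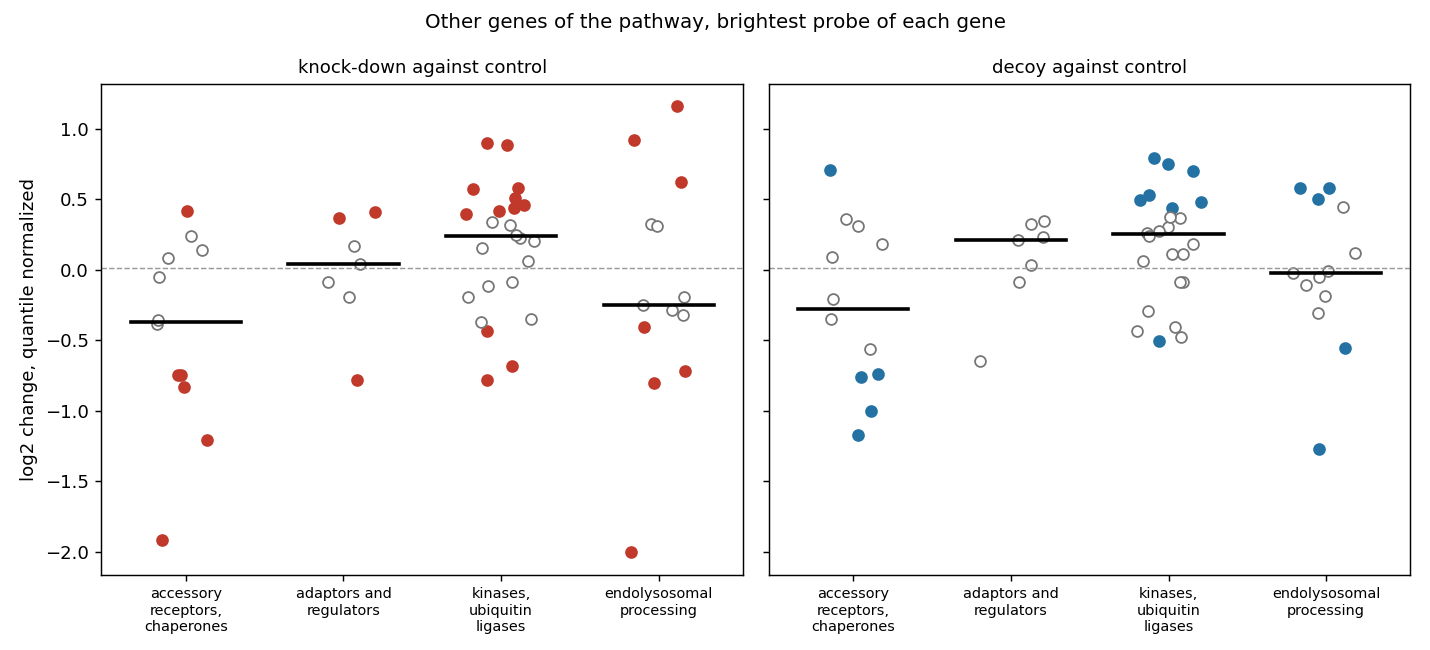
Log2 change (quantile normalized) of the other pathway genes against control, 1 point for each gene by its brightest tested probe, in the knock-down (left) and the decoy (right). Filled points were called, black bars are list medians and the dashed line is the median of all tested probes. The lowest points in both panels are Ctss, which fell by 2.00 and fell by 1.27, and Hsp90b1 (-1.91 and -1.17). Ctss was above background on 2 of the 3 knock-down arrays. Under median scaling none of the genes above the line was called higher, against 2.14% and 2.47% of the 9311 probes above background on all 9 arrays.

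Between the knock-down and decoy lines 7 of the 56 pathway genes were called, 1 higher and 6 lower in the knock-down, against 1.36% and 1.65% of named genes. The genes are Hsp90b1, Ly96, Ikbke (a kinase of the interferon branch), Pld4 (a lysosomal exonuclease), Ctss and Ctsb, all lower, and Ctsl, which was higher. Of the 3 knock-down arrays, Ikbke was above background on 1 and Ctss on 2. Under median scaling none of the 7 was called (adjusted p = 0.0971 to 0.566), with differences of -0.57 to -1.06 for the 6 lower genes and 0.33 for Ctsl.

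The genes whose values over the 9 arrays lay nearest to each member were found by the root mean square difference of centred log2 values, among 12811 probes of named genes with signal. For Tlr4 they were Ppp1r26, Tmem185b and Wdfy1 (0.10, 0.12 and 0.12). For Tlr6 they were Vmn1r45, Bcl2l2 and Srsf10 (0.064, 0.072 and 0.089) and for the brighter Myd88 probe Mib2, Atp5o and Prmt6 (0.084, 0.085 and 0.089). Tlr2 was nearest to S100a16, Prkcd and Tfdp1 (0.080, 0.084 and 0.091), Tlr7 to Utp4, Tmem87a and Parpbp (0.072, 0.078 and 0.078), and Cd14 to Dock4, Morf4l1 and Prrc2c (0.077, 0.083 and 0.083). Among the members themselves, Tlr2 and Tlr7 were the nearest pair (0.18) and Tlr6 and Tlr7 the farthest (0.39). Each of the 6 members had at least 3 other genes nearer to it than any other member. With 12811 probes searched beside only 6 members, this was nearly fixed in advance and says nothing of how alike the members are. All genes share the same 9 arrays, 3 of control and 6 of treated cells, and their normalization.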

How the data were processed

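Samples were grouped by their titles. The authors deposited raw probe intensity as whole numbers, neither background-subtracted nor scaled (from the values), with no detection p-values. Its 2042 blank rows were left out. A further deposited table gives log2 values that the authors processed, by a method not given in the sources used here; R 2.9.1 appears in the submitters' processing notes.

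Raw intensities were corrected by normexp (offset 50), log2 transformed and quantile normalized (limma 3.58.1, R 4.3.3). Probes over the array's median on at least 3 arrays were tested, 27062 of 45281. A linear model with 3 group means over 9 arrays was fitted to all of them (lmFit, eBayes, two-sided). Calls required a Benjamini-Hochberg adjusted p under 0.05. All adjusted p-values and fold changes in the text are limma's from this fit unless another setting is named. Saturation was set at 60000 units. The number of arrays limits the precision. The scripts were tested on simulated data.

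By the annotation 34885 probes have 1 symbol, 18 have several and 10378 have none. Every member probe is accounted for. Of the pathway lists, up to 4 called genes of smallest p and the brightest gene not called are named for each list and comparison. The members and lists were chosen with earlier results of these data known. Alternatives covered normalization, background correction, the authors' values, filters, how probes of 1 gene are combined, the replicate number as a block, array weights, the groups in the fit and each array left out. Scaling to a common upper quartile was added after the data were seen. Same-numbered arrays did not deviate together (correlations of deviations from the group means -0.222 to 0.283), so the samples were not treated as pairs.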

Additional observations from a re-analysis of the deposited data

Results flagged for a closer look

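The knock-down line differed from the decoy line, by the test of knock-down against decoy, in 7 of the named pathway genes. None of the 12 tested member probes was called by that test. An effect of the hairpin or decoy cannot be told apart here from that of transfection and selection. In log2, knock-down minus decoy, the difference was -0.74 for Hsp90b1 (limma adjusted p = 0.0113), -0.69 for Ly96 (adjusted p = 0.0311) and -0.68 for Ikbke (adjusted p = 0.0370). It was -0.79 for Pld4 (adjusted p = 0.00752), -0.73 for Ctss (adjusted p = 0.0135), -0.62 for Ctsb (adjusted p = 0.0237) and 0.58 for Ctsl (adjusted p = 0.0343). Ikbke was above background on 1 and Ctss on 2 of the 3 knock-down arrays, so the sizes of these 2 differences are uncertain. Knock-down and decoy arrays did not overlap for any of the 7, nor for 24.4% of the 9311 probes and 17.2% of all tested probes. The 7 were picked by a test on these same arrays, so the lack of overlap adds no support. With only these 2 groups in the fit none of the 7 was called (adjusted p = 0.0511 to 0.162). Under median scaling none of them was called either (adjusted p = 0.0971 to 0.566). With 1 array left out Pld4 was called in 9 of 9 fits, Hsp90b1 in 8 (adjusted p = 0.0571 without decoy replicate 1) and Ctss in 7 (adjusted p = 0.0747 and 0.0684 without decoy replicates 1 and 2). Ctsb and Ly96 were called in 3 of 9, Ctsl in 2 and Ikbke in 1, and every array thus changed the call of at least 1 of these 4 genes, other than knock-down replicate 1 (adjusted p = 0.0503 to 0.125).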

How the results depend on the processing

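The count of member probes called in the knock-down was 4 to 6 over the 21 alternatives, and 5 to 6 with 1 array left out. In the decoy it was 2 to 7 over the alternatives, 5 to 6 with 1 array left out, 7 under upper quartile scaling, 7 with array weights (which added Tlr2 and the dimmer Tlr6 probe), 3 under median scaling, 3 with the brightest probe of each gene and 2 with the mean of its probes (fewer features by construction). Between knock-down and decoy it was 0 to 1 with 1 array left out, and 1 without background correction, with the authors' values, and with probes above background on at least 3 arrays. The single probe was the brighter Tlr4 probe each time. With a replicate block the counts were 5, 5 and 0, and the correlations behind the pairing check were 0.0132, 0.0289 and 0.00426 for control and knock-down, 0.0288, -0.0291 and -0.0343 for control and decoy, and 0.283, -0.222 and -0.112 for knock-down and decoy.

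Over all probes, 12582 were called in the knock-down, and 8376 as means of a gene's probes (fewer features). In the decoy there were 9270, and 15870 under upper quartile scaling. Between knock-down and decoy there were 726, against 49 under median scaling, 293 under upper quartile scaling, 421 with array weights, 210 with only these groups in the fit and 237 to 1921 with 1 array left out (the highest without knock-down replicate 1, the lowest without decoy replicate 1). Of the 12582 calls 6117 were higher, against 2244 of 15401 under median scaling and 12014 of 17867 under upper quartile scaling. In the decoy 4344 of 9270 were higher, against 1898 of 13682 and 10883 of 15870.

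Among values called under at least 1 of both scalings, signs turned under median scaling in the knock-down for Myd88 (brighter probe, -0.46), Tlr2 (-0.88), Tlr4 (-0.92 and -0.36), Tlr6 (-0.16), Tlr7 (-1.01), Tlr13 (-0.79), Nrros (-0.95), Pik3ap1 (-0.77), Lgmn (-0.41), Map3k8 (-0.46), Tab2 (-0.31), Irak2 (-0.88), Map2k3 (-0.52), Tirap (-0.87), Traf6 (-0.36), Mapk14 (-0.55) and Btk (-0.77). In the decoy they turned for Myd88 (-0.29), Tlr4 (-0.15), Tlr6 (-0.25), Tlr7 (-0.66), Tlr13 (-0.26), Nrros (-0.70), Pik3ap1 (-0.60), Ctsl (-0.082), Lgmn (-0.27), Tab2 (-0.17), Irak2 (-0.53), Map2k3 (-0.67), Tirap (-0.75), Tollip (-0.91), Rnaset2b (-0.72), Traf6 (-0.47), Mapk14 (-0.55), Ly96 (-0.70), Pld4 (-0.44) and Ikbke (-0.067). As means over a gene's probes the signs turned for Myd88 (-0.42 and -0.31), Tlr13 (-0.28 and -0.15) and Irak2 (-0.19 and -0.074), and under upper quartile scaling in the knock-down for Tlr4 (-0.20), Tlr13 (-0.072), Pik3ap1 (-0.049), Irak2 (-0.16) and Tirap (-0.15). Signs also turned, with no call under either scaling, for Cd14 (-0.68 and -0.53), Tlr2 in the decoy (-0.56), the dimmer Tlr6 probe (-0.32 and -0.050) and Btk in the decoy (-0.59). The cause was not tested.

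With 1 array left out, calls were gained for Tlr1 (0.55, adjusted p = 0.0401, without knock-down replicate 1) and Tlr9 (0.40, adjusted p = 0.0391, without knock-down replicate 2) in the knock-down, and for the dimmer Tlr6 probe (0.34, adjusted p = 0.0372, without knock-down replicate 3) and Tlr8 (0.63, adjusted p = 0.0178, without decoy replicate 2) in the decoy. Under upper quartile scaling calls were gained for Tlr1 (1.06 and 0.91), Tlr9 (0.97 and 0.74) and the dimmer Tlr6 probe (0.41 and 0.57) in both comparisons and for Tlr8 (1.13) in the decoy. Of these, all but Tlr6 were below background on every array. Dim probes such as these limit what can be said of Tlr1, Tlr3, Tlr8 and Tlr9.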
